A study of Mus musculus with 12 samples.

Results

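The genes described here carry out peptide presentation on MHC class I. They were H2-K1, H2-D1, B2m, Tap1, Tap2, Tapbp, Psmb8, Psmb9, Psmb10 and Psme1, chosen by name for their place in this pathway, 10 of the 47632 genes in the deposited tables. Each of the 10 names occurred in 1 row of each of the 3 tables, and all 10 had at least 1 FPKM (fragments scaled to transcript length and library size) in either genotype on each day. RNA was taken from epithelial cells isolated with EDTA from the colon of C57/BL6 mice. Tfeb encodes a transcription factor of lysosome and autophagy genes. Both genotypes carried floxed Tfeb alleles. The Tfeb flox/flox mice (labelled WT) were the controls, and the Tfeb ΔIEC mice (labelled KO) had in addition a Cre transgene driven by the villin promoter, which is active in the intestinal epithelium, so that the deletion was not specific to the colon or to 1 epithelial cell type. Mice were sampled on Day 0 (basal, aged 10 and 12 weeks), on Day 4 of dextran sodium sulfate (DSS, a polymer in the drinking water that injures the colonic epithelium; aged 12 weeks) and on Day 11, after the recovery period (aged 10 weeks). The labels give 2.5% DSS, while the methods of the study give a lower concentration.

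There were 2 mice per genotype and day, 12 in all, and the tables hold 1 value per genotype and day, the authors' pooled value. No spread between mice can be taken from it, so the values below carry no error and no test, and whether any difference exceeds the spread between mice was not tested.

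Class I molecules show peptides from the inside of a cell to CD8 T cells. Proteasomes cut proteins into peptides, the TAP transporter carries the peptides into the endoplasmic reticulum, tapasin holds TAP next to empty class I molecules, and the loaded heavy chain leaves for the surface together with beta-2-microglobulin. Interferon-gamma induces a variant of the proteasome, the immunoproteasome, in which the catalytic subunits Psmb5, Psmb6 and Psmb7 are replaced by Psmb8, Psmb9 and Psmb10, respectively. In the gut, the epithelium carries class I on its surface and is in contact with intraepithelial lymphocytes.

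The targeted gene was lower in the knockout groups on each day. Tfeb was at 0.901 FPKM in the Tfeb flox/flox group and 0.185 FPKM in the Tfeb ΔIEC group on Day 0, at 1.08 FPKM against a listed 0 on Day 4, and at 1.18 FPKM against a listed 0 on Day 11. The FPKM values of all genes summed to nearly the same total in both genotypes on Day 0, but the Tfeb flox/flox sum was 1.79 times the Tfeb ΔIEC sum on Day 4 and 1.78 times on Day 11. Dividing each group by its own sum therefore moved the differences of those days toward Tfeb ΔIEC, with a median over all genes of 0.66 on Day 4 and 0.68 on Day 11 on the log2 scale, in place of 0.06 and 0.08. Genes of low level moved by less than abundant ones because of the pseudocount. What this scaling did is given for the 10 genes and the pathway lists, and the marker levels are as deposited. The differences also followed transcript length: on Day 4, the median log2 difference was -1.53 in the fifth of genes with the shortest transcripts and 0.50 in the fifth with the longest. The Day 4 and Day 11 tables resembled each other closely. Of the genes above 0 on both days, 14.3% (Tfeb flox/flox) and 10.2% (Tfeb ΔIEC) had the identical value in both tables, against 0 genes between Day 0 and Day 4, although the labels give Day 4 and Day 11 different animals. The median size of the log2 difference between Day 4 and Day 11 was 0.06 in both genotypes, compared with 0.85 (Tfeb flox/flox) and 0.53 (Tfeb ΔIEC) between Day 0 and Day 4. None of the 10 genes was identical between these tables, and Day 11 values lay between 0.924 and 1.21 times those of Day 4, but for this reason Day 11 is given beside Day 4 and not as a repeat of it.

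Differences between genotypes are given as log2((ΔIEC FPKM + 1)/(flox/flox FPKM + 1)), which understates those of low genes, and a gene was counted as 2-fold higher or lower from a difference of 1 in size. On Day 0, 9 of the 10 genes were lower in Tfeb ΔIEC and only Tap2 was higher, under each scaling used and after subtraction of the length trend. The median difference was -0.80, beside 0.06 over all 9993 genes with at least 1 FPKM in either genotype. B2m, Psmb8 and Psme1 were at least 2-fold lower (3 of 10, where 16.1% of all genes were), and Tap2 was at least 2-fold higher (1 of 10, where 13.5% of all genes were). After subtraction of the length trend, Psme1 was no longer 2-fold lower (-0.60) and H2-D1 was (-1.10). On Day 4, 4 genes were higher (H2-K1, H2-D1, Tap1 and Tap2) and 6 were lower, with a median of -0.33, but after division by the sum of FPKM 7 were higher and 3 lower, with a median of 0.49 beside 0.66 over all genes on that scale. Then 4 were at least 2-fold higher and 0 lower (40.5% and 15.2% of all genes on Day 4, and on Day 11, with the same counts, 41.0% and 14.9%). Psmb8, Psmb9 and Psmb10 were at least 2-fold lower on Day 4 (3 of 10, against 26.1% of all genes), and stayed lower, though by less than 2-fold, after division by the sum. Tap1 was at least 2-fold higher on Day 4 (1 of 10, against 25.6% of all genes). The same 4 genes passed 2-fold on Day 11, where 25.7% of all genes were at least 2-fold lower and 26.1% at least 2-fold higher. The share of the 10 genes past 2-fold downward was thus close to that of all genes on Days 4 and 11.

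**Figure D1:**
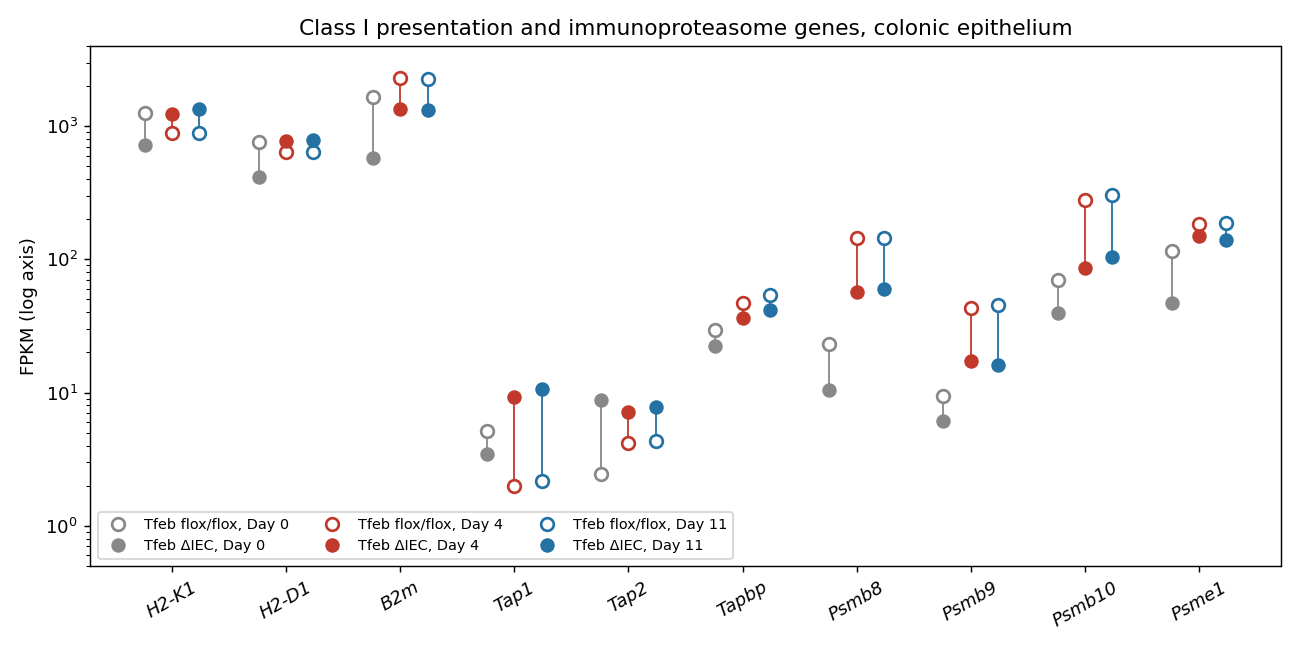
FPKM (log axis) of each of the 10 genes in the 6 groups, with open circles for Tfeb flox/flox, filled circles for Tfeb ΔIEC, and grey, red and blue for Days 0, 4 and 11; each point is the authors' pooled value of 2 mice and lines join the genotypes of a day. The filled circle lies below the open one for 9 genes on Day 0, and on Day 4 it lies above for H2-K1, H2-D1, Tap1 and Tap2.

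With the values as deposited, the immunoproteasome subunits had the largest differences from Day 0 among the 10 genes in Tfeb flox/flox. After division by the sum, Tap1 (log2 difference from Day 0 -1.416) slightly passed Psmb10 (1.409) in size on Day 4. Psmb8, which replaces the subunit that cuts after hydrophobic residues, was at 23.2 FPKM (Tfeb flox/flox) and 10.4 FPKM (Tfeb ΔIEC) on Day 0, at 143 and 57.1 FPKM on Day 4, and at 144 and 60.0 FPKM on Day 11. The Tfeb flox/flox value was the higher one on each day, and both genotypes were several-fold above their Day 0 value on the later days. The log2 difference between genotypes was -1.08, -1.32 and -1.25 on Days 0, 4 and 11, and -1.08, -0.49 and -0.43 after division by the sum of FPKM.

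Psmb9, which replaces the caspase-like subunit, was the lowest of the 3. It was at 9.43 FPKM in Tfeb flox/flox and 6.09 FPKM in Tfeb ΔIEC on Day 0, at 43.2 and 17.4 FPKM on Day 4, and at 45.2 and 16.1 FPKM on Day 11. The genotypes lay closer on Day 0 (log2 difference -0.56) than on Day 4 (-1.27) or Day 11 (-1.44), but after division by the sum these differences were -0.56, -0.46 and -0.63.

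Psmb10, which replaces the trypsin-like subunit, was the highest of the 3. It was at 69.6 and 39.6 FPKM on Day 0, at 279.9 and 86.6 FPKM on Day 4, and at 305.5 and 105 FPKM on Day 11, in Tfeb flox/flox and Tfeb ΔIEC, respectively. With a log2 difference of -1.68 it was the member furthest below the control on Day 4, and it stayed below it after division by the sum (-0.85) and after subtraction of the median of genes of like length (-1.62).

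Since the tables of different days were normalized separately, changes between days are descriptions of levels set side by side. Between Day 0 and Day 4, Tfeb flox/flox was 6.20-fold higher for Psmb8, 4.58-fold for Psmb9 and 4.02-fold for Psmb10, and these were the 3 genes at least 2-fold higher there (17.5% of all genes were). In the same group, 1 gene, Tap1, was at least 2-fold lower (25.7% of all genes were). Tfeb ΔIEC was 5.47-fold higher on Day 4 for Psmb8, 2.85-fold for Psmb9 and 2.19-fold for Psmb10, and B2m, Tap1 and Psme1 were at least 2-fold higher as well. That made 6 of 10 genes, where 9.26% of all genes were, and 0 of 10 at least 2-fold lower, where 15.6% were. After division by the sum, the 3 immunoproteasome genes were still at least 2-fold higher on Day 4 in both genotypes, and the counts became 3 higher and 2 lower in Tfeb flox/flox (9.37% and 35.9% of all genes on that scale) and 8 higher and 0 lower in Tfeb ΔIEC (12.2% and 12.7%).

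The comparison of Day 11 with Day 0 gave 3 genes at least 2-fold higher and 0 lower in Tfeb flox/flox (17.8% and 26.2% of all genes) and 6 higher and 0 lower in Tfeb ΔIEC (9.69% and 15.6% of all genes). After division by the sum, these counts were 3 and 2 in Tfeb flox/flox (9.57% and 36.7% of all genes) and 9 and 0 in Tfeb ΔIEC (12.5% and 13.1% of all genes). The median difference of the 10 genes between Day 4 and Day 0 was 0.61 for the controls and 1.15 for Tfeb ΔIEC on the log2 scale, beside -0.20 over all genes in both genotypes. After division by the sum, these medians were 0.08 and 1.39, beside -0.62 and -0.01 over all genes. The 2 genotypes share no samples here, but each of them shares its Day 0 value between the Day 4 and Day 11 comparisons.

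A ratio between 2 genes of the same group does not depend on how the group was scaled, but it carries the trend with transcript length where the genes differ in length. The 3 subunits were therefore set against those they replace. Psmb8 was at 0.370 times the level of Psmb5 in Tfeb flox/flox on Day 0 and at 2.89 times on Day 4, a ratio 7.81 times as high. The Tfeb ΔIEC ratio was 0.320 on Day 0 and 2.56 on Day 4, 7.97 times as high. Both genes were lower in Tfeb ΔIEC on these days, a direction that division by the sum kept, and the ratios of the genotypes lay close to each other as long as transcript length was left aside.

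For Psmb9 and Psmb6 the ratio was 0.0575 on Day 0 and 0.168 on Day 4 in the controls, and 0.0746 and 0.272 without epithelial Tfeb, so that it was 1.62 times as high in Tfeb ΔIEC on Day 4. Psmb10 and Psmb7 differed in the other direction. Their ratio was 6.27 on Day 0 and 43.6 on Day 4 in Tfeb flox/flox, but 2.70 and 7.43 in Tfeb ΔIEC, which put Tfeb flox/flox 5.87 times above Tfeb ΔIEC on Day 4. In all 3 pairs and both genotypes the ratio was at least 2.75 times as high on Day 4 as on Day 0. For 1 of the 3 pairs, Psmb9 and Psmb6, the order of the genotypes turned once the length trend was subtracted. After subtraction of the length trend, the log2 difference between genotypes on Day 4 was -1.38 for Psmb8 and -0.06 for Psmb5 (-1.06 and -0.34 on Day 0), -1.19 for Psmb9 and -1.05 for Psmb6, and -1.62 for Psmb10 and 1.03 for Psmb7. On that scale the immunoproteasome subunit was the lower one of each pair, as it was on Day 0, by little for Psmb9 (-0.55, against -0.47 for Psmb6).

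**Figure D2:**
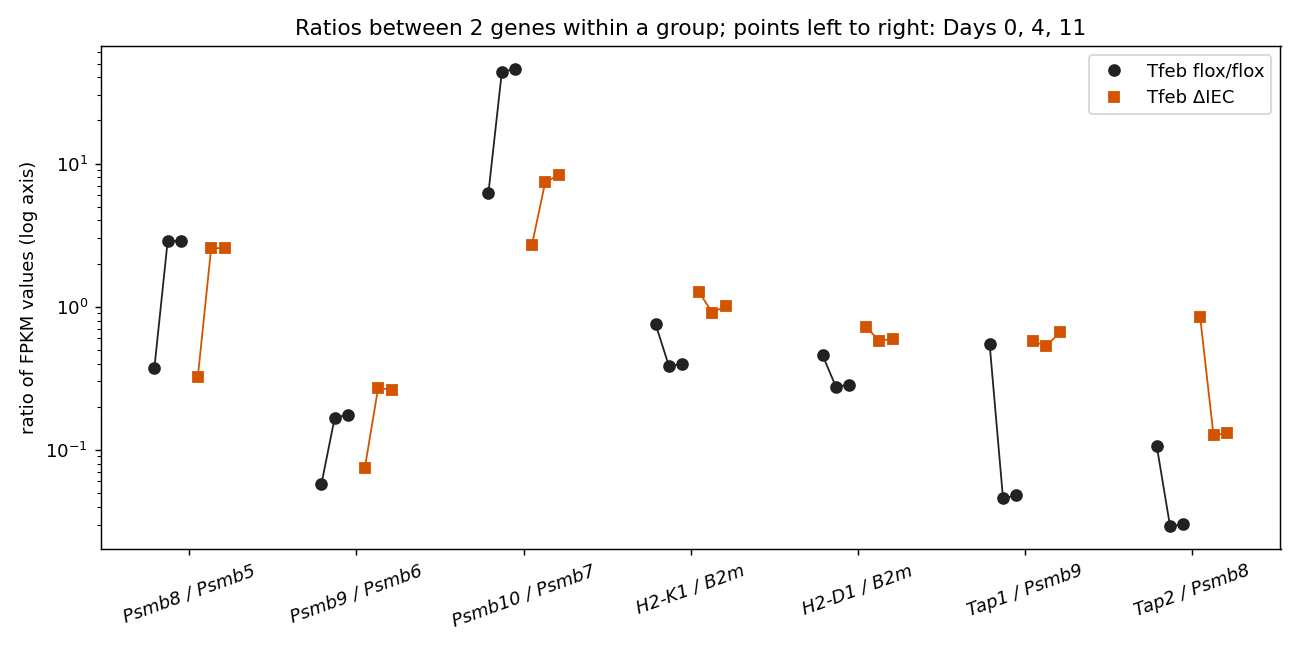
Ratios of the FPKM values of 2 genes within the same group (log axis), with black circles for Tfeb flox/flox and orange squares for Tfeb ΔIEC, and from left to right Days 0, 4 and 11. The 3 ratios of immunoproteasome to constitutive subunits are higher on Day 4 than on Day 0 in both genotypes, whereas Tap1/Psmb9 is 0.0458 for the black circle of Day 4 and 0.531 for the orange square.

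The constitutive subunits themselves went in both directions. On Day 4, Psmb5 was at 49.7 and 22.3 FPKM and Psmb6 at 257 and 63.9 FPKM, in Tfeb flox/flox and Tfeb ΔIEC, whereas Psmb7 was at 6.42 and 11.7 FPKM. After division by the sum, the log2 difference was -0.31 for Psmb5, -1.16 for Psmb6 and 1.50 for Psmb7, and their median was -0.31 in place of -1.12. Of the 12 other genes of the proteasome core and its assembly, 5 were at least 2-fold lower on Day 4 and 0 higher, with a median log2 difference of -0.93, but after division by the sum 1 was at least 2-fold lower and 2 were higher, with a median of -0.10. The core genes had short transcripts (median 1174 nt), and after subtraction of the length trend their median was -0.65.

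Psme1 encodes a subunit of the PA28 ring, which caps the proteasome and opens its gate. It was at 116 and 47.2 FPKM on Day 0, at 185 and 150.2 FPKM on Day 4 and at 187 and 139.8 FPKM on Day 11, in Tfeb flox/flox and Tfeb ΔIEC. The genotypes were further apart on Day 0 (log2 difference -1.28) than on Day 4 (-0.30) or Day 11 (-0.42), and on the later days division by the sum put Tfeb ΔIEC above Tfeb flox/flox. Its partner Psme2 was at 48.6 and 22.3 FPKM on Day 0 and at 114 and 60.8 FPKM on Day 4, a log2 difference of -0.90 that was -0.07 after division by the sum. The ratio of Psme1 to Psme2 was 2.38 and 2.12 on Day 0 and 1.62 and 2.47 on Day 4. Of the 4 other activator and inhibitor genes, which include Psme2, 0 were at least 2-fold higher and 1 lower on Day 0, and of the 3 that passed on Day 4 0 were higher and 0 lower. Division by the sum turned their median on Day 4 from -0.26 to 0.16, with 1 gene, the inhibitor Psmf1, at least 2-fold higher. Psme1 had the shortest transcripts of the 10 genes (median 711 nt), where genes of like length had a median difference of -1.25 on Day 4.

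The heavy chains and beta-2-microglobulin were among the most abundant transcripts, at percentile 96.45 or above in all 6 groups, among the genes with at least 1 FPKM in the group. H2-K1 was at 1259 FPKM (Tfeb flox/flox) and 723 FPKM (Tfeb ΔIEC) on Day 0, at 888 and 1226 FPKM on Day 4, and at 893 and 1339 FPKM on Day 11. The Tfeb ΔIEC value was the lower one on Day 0 and the higher one on the later days, with log2 differences of -0.80, 0.46 and 0.58.

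H2-D1 had the same order. It was at 761 and 414 FPKM on Day 0, at 634 and 777 FPKM on Day 4 and at 642 and 791 FPKM on Day 11, with log2 differences of -0.88, 0.29 and 0.30. Division by the sum left these signs as they were for both heavy chains, but after subtraction of the length trend H2-D1 differed from its genes of like length by -0.14 on Day 4.

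B2m, the light chain shared by all class I molecules, was lower in Tfeb ΔIEC on each day as deposited. It was at 1664 and 572 FPKM on Day 0, at 2305 and 1349 FPKM on Day 4, and at 2249 and 1325 FPKM on Day 11. The log2 difference was -1.54 on Day 0, the furthest below the control of the 10 genes on that day, and -0.77 on Day 4, where division by the sum turned it to 0.06. Genes with transcripts as short as that of B2m (860 nt) had a median difference of -0.77 on Day 4.

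Within a group, H2-K1 was at 0.757 times the level of B2m in Tfeb flox/flox and at 1.26 times in Tfeb ΔIEC on Day 0, and at 0.386 and 0.909 times on Day 4. H2-D1 was at 0.457 and 0.723 times the level of B2m on Day 0 and at 0.275 and 0.576 times on Day 4. Both ratios were higher in Tfeb ΔIEC on each day, and in both genotypes lower on Day 4 than on Day 0. B2m has the shorter transcripts, and after subtraction of the length trend the log2 difference between genotypes on Day 4 was 0.42 for H2-K1 and 0.0029 for B2m, but -0.14 for H2-D1, so that the order of H2-D1 and B2m turned there. On Day 0, the same values were -0.72 for H2-K1, -1.10 for H2-D1 and -1.15 for B2m. The heavy chains kept close to each other, with H2-K1 at 1.39 to 1.75 times H2-D1 in the 6 groups.

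H2-K1 and H2-D1 belong to a family with shared sequence: 90.4% and 87.2% of the 50-base sequences of their annotated transcripts occur in no other gene, and the gene with which they share most is H2-Q10 (9.27 and 10.98 FPKM on Day 4) and H2-Q1 (1.67 and 3.33 FPKM), respectively. Reads could therefore be split among these genes in the counting. H2-K1 lies at chr17:33996017-34000347 on the minus strand and H2-D1 at chr17:35262730-35267499 on the plus strand (GENCODE M21, GRCm38/mm10). Their promoters (RefSeq start sites, GRCm38.p6, 250 bases before to 50 after the start site) are shown side by side. Whether these sequences bear on the levels of the 2 genes was not tested. The longest run that both hold, 47 bases, is in capitals; it begins at position -141 from the start of H2-K1 (chr17:34000298-34000597, minus strand) and at position -201 from that of H2-D1 (chr17:35262844-35263143, plus strand).
H2-K1: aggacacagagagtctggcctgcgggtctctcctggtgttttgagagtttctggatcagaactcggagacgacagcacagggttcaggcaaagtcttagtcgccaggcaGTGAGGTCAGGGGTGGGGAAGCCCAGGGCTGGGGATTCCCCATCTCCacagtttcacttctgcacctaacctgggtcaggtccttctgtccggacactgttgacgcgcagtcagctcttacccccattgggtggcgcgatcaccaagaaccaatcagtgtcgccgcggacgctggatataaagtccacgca
H2-D1: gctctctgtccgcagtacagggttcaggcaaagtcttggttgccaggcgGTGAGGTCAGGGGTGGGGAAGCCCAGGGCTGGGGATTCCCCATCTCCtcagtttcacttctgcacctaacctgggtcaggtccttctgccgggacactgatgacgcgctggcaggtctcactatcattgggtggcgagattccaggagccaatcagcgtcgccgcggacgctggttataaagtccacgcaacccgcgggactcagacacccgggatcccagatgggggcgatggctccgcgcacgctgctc

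Tap1 and Tap2 encode the chains of the peptide transporter and were at 1.98 to 10.6 FPKM in the 6 groups. The number of fragments behind these values is unknown. Tap1 was at 5.15 FPKM (Tfeb flox/flox) and 3.48 FPKM (Tfeb ΔIEC) on Day 0, at 1.98 and 9.23 FPKM on Day 4, and at 2.17 and 10.6 FPKM on Day 11. The order of the genotypes on Day 0 was reversed on the later days, when Tap1 was at the 22.4th percentile of detected genes in Tfeb flox/flox and at the 66.8th in Tfeb ΔIEC (Day 4). The log2 differences were -0.46, 1.78 and 1.88, and neither division by the sum nor subtraction of the length trend changed a sign.

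Tap2 was at 2.47 and 8.81 FPKM on Day 0, at 4.18 and 7.21 FPKM on Day 4, and at 4.34 and 7.84 FPKM on Day 11, in Tfeb flox/flox and Tfeb ΔIEC. It was the one gene of the 10 that was higher in Tfeb ΔIEC on each of the 3 days under each scaling, with log2 differences of 1.50, 0.66 and 0.73, although genes of like length had a median difference of 0.59 on Day 4. The ratio of Tap1 to Tap2 was 2.09 (Tfeb flox/flox) and 0.395 (Tfeb ΔIEC) on Day 0, but 0.473 and 1.28 on Day 4, so the order of the genotypes changed there as well.

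Tapbp, the gene of tapasin, had nearly the same difference between genotypes on each day. It was at 29.7 and 22.2 FPKM on Day 0, at 46.7 and 36.0 FPKM on Day 4 and at 54.0 and 41.5 FPKM on Day 11, and its log2 difference was -0.40, -0.37 and -0.37. Division by the sum made it higher in Tfeb ΔIEC on Day 4 and Day 11, whereas genes of like length were higher in Tfeb ΔIEC by a median of 0.69 on Day 4.

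**Figure D3:**
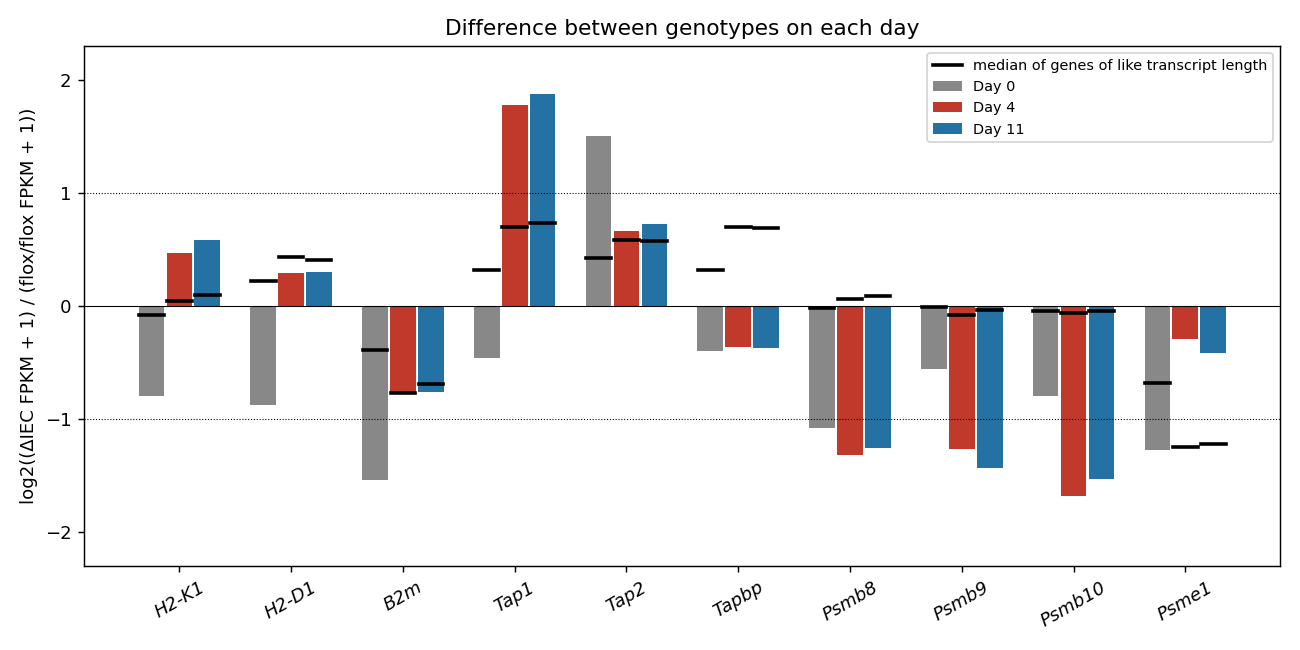
Log2 difference between genotypes, log2((ΔIEC FPKM + 1)/(flox/flox FPKM + 1)), of each gene on Day 0 (grey), Day 4 (red) and Day 11 (blue), with a black mark at the median of the genes nearest in transcript length and dotted lines at 2-fold. H2-K1, H2-D1 and Tap1 change sign between Day 0 and Day 4, Psmb8, Psmb9 and Psmb10 lie below -1 on Day 4, and B2m lies at its mark on Day 4.

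Tap1 and Psmb9 are neighbours on opposite strands in the class II region of the MHC, with annotated starts 211 bases apart. Tap1 lies at chr17:34187553-34197225 on the plus strand and Psmb9 at chr17:34181987-34187764 on the minus strand (GENCODE M21, GRCm38/mm10), and their annotations overlap. Tap2 (chr17:34203527-34216321, plus strand) and Psmb8 (chr17:34197721-34201454, plus strand) follow on the same chromosome and do not overlap. The tables place Tap1 and Psmb9 in 1 shared locus and Tap2 and Psmb8 in another. The libraries were made without marking strand as far as the protocol tells, so fragments from the overlap of Tap1 and Psmb9 cannot be assigned by strand, but 96.7% of the 50-base sequences of Tap1 transcripts and 95.8% of those of Psmb9 occur in no other gene. Of the transcripts of Tap2, Psmb8 and Tapbp, 88.4%, 88.1% and 76.8% of such sequences occur in no other gene, and the genes with which these 3 share most (Gm15821, Gm20496 and Gm19412) were listed at 0 in all groups. For Psme1 this share was 94.5%. Gm7776, with which Psme1 shares most, was at 27.0 FPKM in Tfeb flox/flox and 15.6 FPKM in Tfeb ΔIEC on Day 4.

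The neighbours did not keep step. On Day 0, Tap1 was at 0.546 times the level of Psmb9 in the controls and at 0.571 times in Tfeb ΔIEC, nearly the same ratio. On Day 4 it was at 0.0458 times in Tfeb flox/flox and still at 0.531 times in Tfeb ΔIEC, so that the ratio was 11.6 times as high in Tfeb ΔIEC. After subtraction of the length trend, the log2 difference between genotypes on Day 4 was 1.08 for Tap1 and -1.19 for Psmb9, the same order. Tap2 was at 0.107 and 0.845 times the level of Psmb8 on Day 0 and at 0.0292 and 0.126 times on Day 4, in Tfeb flox/flox and Tfeb ΔIEC. The Tap1 promoter is shown because 275 of its 300 bases, in capitals, are also in the window of Psmb9, read on the other strand (chr17:34187306-34187605, plus strand, RefSeq, GRCm38.p6).
Tap1: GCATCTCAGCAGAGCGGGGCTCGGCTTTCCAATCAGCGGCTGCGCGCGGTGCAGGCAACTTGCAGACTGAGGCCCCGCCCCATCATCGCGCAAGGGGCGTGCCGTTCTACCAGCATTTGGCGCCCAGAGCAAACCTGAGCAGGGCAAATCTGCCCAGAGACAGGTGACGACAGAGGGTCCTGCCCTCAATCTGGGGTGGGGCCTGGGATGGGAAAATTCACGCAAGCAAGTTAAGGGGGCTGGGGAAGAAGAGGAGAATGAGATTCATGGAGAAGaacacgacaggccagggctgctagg

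Promoter windows of 300 bases were found for 9 of the 10 genes (10 windows, with 2 starts for H2-K1). They were searched on both strands for the 6 letters CACGTG, the E-box that TFEB and related factors bind, for GAAA followed by any 2 bases and GAAA, a form of the interferon-stimulated response element, and for TTC followed by any 3 bases and GAA, a form of the STAT site. CACGTG occurred in 7.15% of the 32851 windows of the table and in 1 of the 9 genes, Psmb10, at position -116 from the start. The GAAA pair occurred in 3.44% of all windows and in 2 of the 9 genes, B2m (position -139) and Psme1 (position 9). The STAT form occurred in 8.30% of all windows and in Psmb8 alone of the 9 genes, at position -97. A match is a description of these letters and not a site of binding. Only these exact forms were counted, so a window without a match can still hold a variant of the element. The windows of Psmb10 (chr8:105938343-105938642, minus strand) and B2m (chr2:122147437-122147736, plus strand) are printed with the match in capitals. Psmb10 is annotated at chr8:105935735-105938444 on the minus strand, B2m at chr2:122147686-122153083 on the plus strand, Psme1 at chr14:55578123-55581529 on the plus strand and Tapbp at chr17:33915899-33929292 on the plus strand.
Psmb10: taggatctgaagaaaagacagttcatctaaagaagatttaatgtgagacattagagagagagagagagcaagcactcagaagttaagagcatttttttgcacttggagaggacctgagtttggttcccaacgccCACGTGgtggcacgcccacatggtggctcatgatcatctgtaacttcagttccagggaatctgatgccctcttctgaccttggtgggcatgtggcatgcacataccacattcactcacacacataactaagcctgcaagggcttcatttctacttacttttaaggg
B2m: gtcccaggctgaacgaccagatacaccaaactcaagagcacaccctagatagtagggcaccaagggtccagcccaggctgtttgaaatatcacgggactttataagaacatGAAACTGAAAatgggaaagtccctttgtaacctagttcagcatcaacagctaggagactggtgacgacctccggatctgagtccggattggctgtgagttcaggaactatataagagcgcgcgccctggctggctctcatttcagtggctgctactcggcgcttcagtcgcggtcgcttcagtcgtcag

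Other genes that trim or load peptides were compared in the same way. Of 10 such genes, 2 were at least 2-fold higher in Tfeb ΔIEC on Day 0 and 6 on Day 4, with 0 lower on either day, and the median log2 difference was 0.59 on Day 0 and 1.61 on Day 4, beside 0.06 over all genes on each day. Pdia3, the oxidoreductase that pairs with tapasin, was at 313 and 424 FPKM on Day 0 and at 56.6 and 399.9 FPKM on Day 4, in Tfeb flox/flox and Tfeb ΔIEC. Its chaperone partners in loading had the same order on Day 4, with calreticulin (Calr) at 46.4 and 206 FPKM and calnexin (Canx) at 6.80 and 53.5 FPKM. Erap1, the peptidase that trims peptides in the endoplasmic reticulum, was at 5.38 and 7.84 FPKM on Day 0 and at 0.690 and 6.68 FPKM on Day 4. For these 4 genes the Tfeb ΔIEC values of Day 0 and Day 4 lay close to each other, and the Tfeb flox/flox value was the one that was lower on Day 4. Not all genes of the list had this order: the peptidase gene Npepps was at 24.5 and 12.9 FPKM and Sec61a1 at 54.4 and 50.1 FPKM on Day 4. The median of the list was above 0 on Day 4 also after division by the sum (median 2.08) and after subtraction of the length trend (median 1.24).

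The other class I chains had the order of H2-K1 and H2-D1 on balance. Of 20 listed, 14 passed 1 FPKM in either genotype, and their median log2 difference was -0.55 on Day 0 and 0.69 on Day 4 (1.13 after division by the sum). On Day 0, 0 were at least 2-fold higher and 2 lower, and on Day 4, 3 were higher and 1 lower (8 and 1 after division by the sum). H2-Q2 was at 108.8 and 85.7 FPKM on Day 0 and at 29.6 and 134 FPKM on Day 4. H2-Q7 was at 10.1 and 2.27 FPKM on Day 0 and at 2.60 and 9.54 FPKM on Day 4. H2-T23, the gene of the nonclassical molecule Qa-1, was at 206 and 111 FPKM on Day 0 and at 192 and 204 FPKM on Day 4. The H2-Q genes share sequence with each other and with H2-K1 and H2-D1, and their separate values are uncertain.

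**Figure D4:**
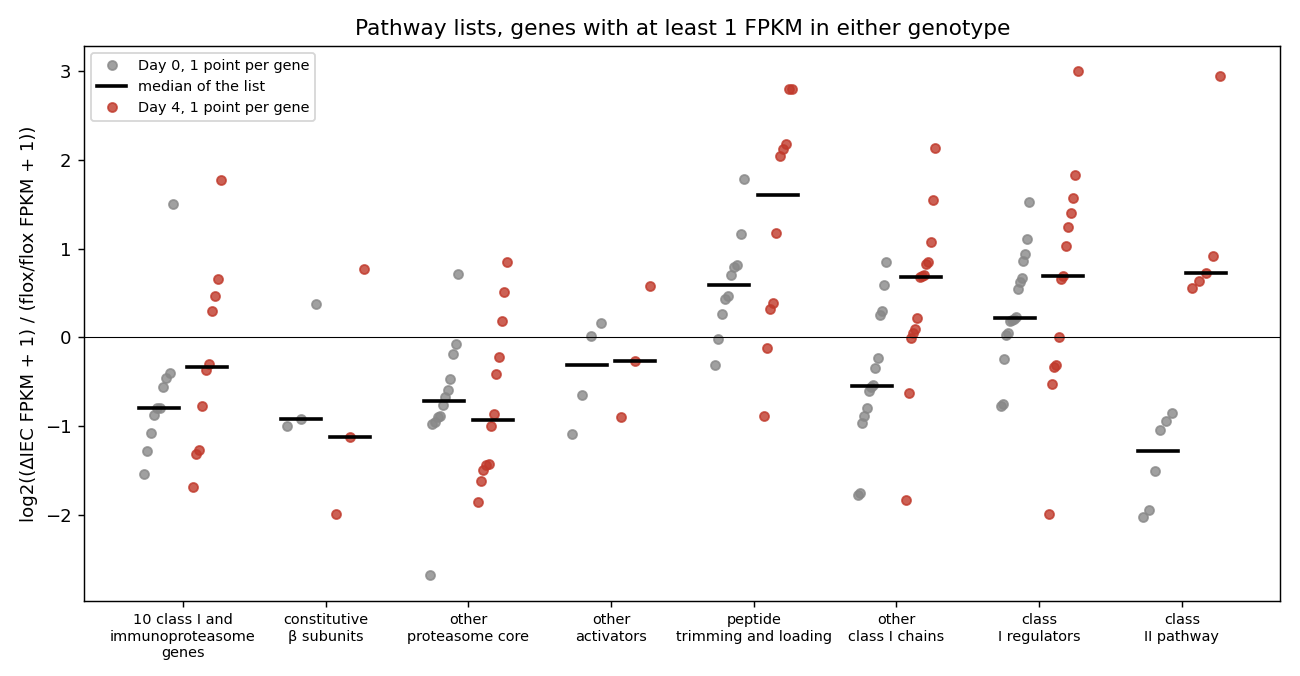
Log2 difference between genotypes on Day 0 (grey) and Day 4 (red) of the 10 genes and of the 7 pathway lists, with 1 point per gene with at least 1 FPKM in either genotype and a black line at the median of each list. The peptide trimming and loading list has a median of 1.61 on Day 4 and the 12 other proteasome core genes one of -0.93, and the class II list goes from -1.28 on Day 0 to 0.73.

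Genes that regulate class I expression were mixed. Of 19 listed, 16 passed on Day 0 with 2 at least 2-fold higher and 0 lower, and 13 passed on Day 4 with 6 higher and 1 lower. The median log2 difference on Day 4 was 0.69, but 1.39 after division by the sum and 0.09 after subtraction of the length trend. Irf1, an interferon-induced activator of several of the 10 genes, was at 18.1 and 28.4 FPKM on Day 0 and at 12.8 and 47.9 FPKM on Day 4, in Tfeb flox/flox and Tfeb ΔIEC. Ifngr1, a chain of the interferon-gamma receptor, was at 38.0 and 60.8 FPKM on Day 0 and at 11.7 and 101 FPKM on Day 4. Division by the sum left Irf1 (2.61) and Ifngr1 (3.78) higher in Tfeb ΔIEC on Day 4. Irf2, which binds the same elements as Irf1, was at 13.6 and 7.69 FPKM on Day 0 and at 17.6 and 3.68 FPKM on Day 4, and it was lower on Day 4 under each scaling. Nlrc5, the transactivator of class I genes, was at 0.553 FPKM or below in all 6 groups. The interferon genes Ifng, Ifnb1, Ifnl2 and Ifnl3 were listed at 0 in all 6 groups.

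The class II pathway shared the change of order between days. Of 8 genes, 6 passed on Day 0 with 0 at least 2-fold higher and 4 lower (median -1.28), and 5 passed on Day 4 with 1 higher and 0 lower (median 0.73, or 1.45 with 5 higher after division by the sum). H2-Aa was at 9.23 and 1.52 FPKM on Day 0 and at 12.1 and 23.7 FPKM on Day 4. Cd74, the invariant chain, was at 34.7 and 18.8 FPKM on Day 0 and at 20.5 and 165 FPKM on Day 4. The counts of these lists stand beside the shares of all genes given above for each day and scale, and the lists were written with results of these data known.

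The preparation was checked against markers, since leukocytes also express class I and immunoproteasome genes. The 8 epithelial markers summed to 5776 to 11300 FPKM in the 6 groups and none was listed at 0. The 4 leukocyte markers summed to 14.7, 17.2 and 18.1 FPKM in Tfeb flox/flox and to 4.15, 14.2 and 14.8 FPKM in Tfeb ΔIEC on Days 0, 4 and 11, so they were lower in Tfeb ΔIEC on Day 0, as the 9 lower genes were. The widest gap on Day 0 was that of Cd52 (6.22 FPKM and a listed 0). Ptprc, the pan-leukocyte marker CD45, was at 0.287 to 0.790 FPKM and lay close in the genotypes on Day 0 (0.373 and 0.328 FPKM). On Day 4 the markers were split. Ptprc (0.362 and 0.790 FPKM) and Laptm5 (1.52 and 3.71 FPKM) were higher in Tfeb ΔIEC, and Cd52 (7.28 and 3.33 FPKM) and Coro1a (8.03 and 6.37 FPKM) were lower. The 9 T cell markers summed to 13.1 and 5.21 FPKM on Day 0 and to 2.59 and 8.42 FPKM on Day 4, with Cd4 at 0 in all groups, so that the sums had the order of H2-K1, H2-D1 and Tap1. Most of the Day 0 sum was Cd3g (7.09 and 2.01 FPKM) and Gzma (3.89 FPKM and a listed 0), whereas Nkg7 (1.49 and 2.65 FPKM) and Cd3d (a listed 0 and 0.339 FPKM) had the opposite order, as did Cd3e on Day 4 (0.386 and 0.219 FPKM). The B and plasma cell markers summed to 3.69 and 1.57 FPKM on Day 0 and to 0.255 and 4.26 FPKM on Day 4, the same order. Macrophage markers summed to at most 3.31 FPKM, with Cd68 and Adgre1 at 0 in all groups. Of the 4 neutrophil markers, S100a9 and Csf3r were at 0 in all groups, S100a8 was at 0 in both genotypes on Day 0 and at a listed 0 and 1.15 FPKM on Day 4, and Ly6g was at 1.18 and 4.10 FPKM on Day 0 and at 159.9 and 99.0 FPKM on Day 4. The markers of stroma and endothelium summed to 2.37 to 4.85 FPKM. The part of these cells in the values of the 10 genes was not tested, and fewer cells of a type and less RNA per cell cannot be told apart in such samples. The epithelial markers also differed among themselves on Day 4, with Krt20, a marker of differentiated surface cells, at 101 and 931 FPKM and Vil1 at 30.6 and 224 FPKM, in Tfeb flox/flox and Tfeb ΔIEC, and Krt19 at 5453 and 5430 FPKM. The 4 goblet cell markers summed to 6007 and 4798 FPKM on Day 0 and to 31420 and 5503 FPKM on Day 4. Most of that sum was Tff3 (28760 and 2166 FPKM on Day 4), and Muc2 (645 and 1894 FPKM) and Clca1 (432 and 1298 FPKM) had the opposite order. The 4 colonocyte markers summed to 29550 and 22570 FPKM on Day 0 and to 25040 and 27100 FPKM on Day 4, most of it Car1. On Day 0, Aqp8 (197.8 and 30.15 FPKM) and Car4 (269 and 91.9 FPKM) were lower in Tfeb ΔIEC and Slc26a3 (85.8 and 112 FPKM) was higher. On Day 4, Slc26a3 (33.3 and 271 FPKM) and Aqp8 (25.3 and 69.3 FPKM) were higher and Car4 (232 and 147 FPKM) was lower.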

How the data were processed

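RNA from colonic epithelial cells of 12 mice (2 genotypes, 3 days, 2 mice each) was turned into full-length cDNA by a variant of SmartSeq2 and sequenced paired-end. The authors aligned the reads to mm10 with TopHat2 version 2.0.14 and computed FPKM with Cuffdiff version 2.1.1, in 1 table per day. The deposited FPKM values are 1 pooled value per genotype and day; read counts are not given, so the depth is unknown and no interval could be set. Cuffdiff scales libraries within a table, so tables of different days were normalized separately, and FPKM divides by transcript length, so shortened or degraded RNA can shift genes of different lengths unequally. The tables also hold the authors' own comparison (log2 fold change, test statistic, p-value, q-value, significance), which was not used.

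Groups followed the genotype and treatment labels. Differences were taken as log2 of FPKM plus a pseudocount of 1 over genes with at least 1 FPKM in either group, and counted from 2-fold. With 1 value per group there is no test. Named genes were the 10 genes, the genes of fixed pathway and marker lists, Tfeb, and the 3 genes with the most similar levels; genes and lists were chosen with earlier results of these data known. Where a symbol of a list occurred in more than 1 row, the first was used. The length trend was a running median over 301 genes by median transcript length (GENCODE M21 basic, annotated for 47220 of 47632 genes, at least 200 nt). Uniqueness was counted over all 50-base sequences of the annotated transcripts. Promoters are those of RefSeq (GRCm38.p6). How often a 2-fold call is wrong in these data was not tested. Alternatives were pseudocounts of 0.1 and 5, division by the sum of FPKM, subtraction of the all-gene median or of the length trend, a 4-fold limit, and a filter at 5 FPKM or none. Proteins were not analysed here. Python 3.11.15, numpy 2.4.6 and pandas 2.3.3 were used.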

Additional observations from a re-analysis of the deposited data

Results flagged for a closer look

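For 3 of the 10 genes, with the values as deposited, the difference between genotypes had the opposite sign on Day 0 and on the later days, which is what brought them here. The log2 difference of Day 4 minus that of Day 0 was 1.26 for H2-K1, 1.17 for H2-D1 and 2.24 for Tap1. On Day 11, it was 1.38 for H2-K1, 1.18 for H2-D1 and 2.33 for Tap1. The difference was not tested, because each genotype and day has 1 pooled value. Division by the sum of FPKM left the signs of all 3 genes on all 3 days as they were, whereas subtraction of the length trend made H2-D1 lower in Tfeb ΔIEC on Day 4 (-0.14) and Day 11 (-0.10) too. After division by the sum, B2m (-1.54 on Day 0 and 0.06 on Day 4), Tapbp (-0.40 and 0.45) and Psme1 (-1.27 and 0.53) changed sign as well, which made 6 of 10 genes. That division also moved the Day 4 median over all genes from 0.06 to 0.66. How many of all genes changed sign was not counted on either scale, so these counts cannot be read as particular to the 10 genes. After subtraction of the length trend Psme1 was at -0.60 on Day 0 and 0.95 on Day 4.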

How the results depend on the processing

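The reported medians were -0.80, -0.33 and -0.39 on Days 0, 4 and 11. Division by the sum of FPKM reversed the medians of Day 4 (0.49) and Day 11 (0.43), and gave 4 genes at least 2-fold higher and 0 lower on both days in place of 1 and 3, where on that scale 40.5% of all genes were higher and 15.2% lower on Day 4 and 41.0% and 14.9% on Day 11. Subtraction of the length trend gave medians of -0.74, -0.070 and -0.085 on Days 0, 4 and 11, with 4 genes at least 2-fold lower in place of 3 on Days 4 and 11 (Tapbp in addition), and subtraction of the all-gene median gave -0.86, -0.39 and -0.47. A pseudocount of 5 gave medians of -0.77, -0.31 and -0.38, with 0 genes at least 2-fold higher and 2 lower on Day 0 in place of 1 and 3, and one of 0.1 gave a median of -0.81 on Day 0. At a 4-fold limit 0 genes were higher and 0 lower on any of the 3 days. Filters on low values changed no count. No paired analysis was possible because each genotype and day has 1 pooled value, and for the same reason no mouse could be left out. The depth is unknown, so what it limits could not be set.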

Other observations

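Among 3704 genes outside the 10, with at least 10 FPKM in 1 or more groups, the levels most like the mean of the 10 genes over the 6 groups were those of Cyp2d34 (Pearson r = 0.997), Upp1 (r = 0.997) and Mapk13 (r = 0.996), on the log2(FPKM + 1) scale. The 6 points share their tables in pairs, and Days 4 and 11 are nearly equal, so these r values are a description. Upp1, a uridine phosphorylase, was at 8.39 FPKM (Tfeb flox/flox) and 1.95 FPKM (Tfeb ΔIEC) on Day 0 and at 41.2 and 27.9 FPKM on Day 4. Mapk13, a p38 kinase, was at 113 and 82.3 FPKM on Day 0 and at 157 and 143.5 FPKM on Day 4.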
